A study of Sus scrofa with 6 samples.

Results

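Heme is built in the liver by a chain of mitochondrial and cytosolic enzymes and is broken down to bile pigment by another, and transcripts of the 9 enzymes ALAS1, ALAD, UROS, UROD, CPOX, PPOX, FECH, HMOX1 and BLVRB were followed here in pig liver. An enzyme was included when its symbol appeared among the gene symbols of a row of the expression table, and the row with the highest mean level was to be kept where a symbol had several. In all, 8 of the 9 enzymes had a row, 1 row each, among 121055 assembled loci, of which 22571 carried a known gene identifier and 14727 passed a minimum mean level and were tested. ALAD had no row under this symbol and is not analysed here. The libraries came from the livers of 3 pigs of normal birth weight (about 1.49 kg, "normal") and 3 pigs with intrauterine growth restriction (about 0.97 kg, "IUGR"), all males of the PIC breed at an age of 150 days. Piglets were chosen as same-litter pairs of 1 IUGR and 1 control animal, and the sequenced pigs were drawn from each group at random. The animals were raised alike on formula and then solid diets. All were given an intravenous glucose load the day before slaughter and were kept off feed for a day. Growth restriction in this design was naturally occurring low birth weight, with no genetic change or drug. Each pig gave 1 poly(A) RNA library, and levels are FPKM, the fragments of a locus divided by its exon length and by the mapped reads of the library, so they are given per length and can be set side by side between genes.

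Hepatocytes make heme mainly for cytochrome P450 enzymes and other heme proteins, and the first enzyme, ALAS1, which joins glycine and succinyl-CoA to 5-aminolevulinate, limits the rate of the pathway in this tissue and is repressed by heme itself. In mice, fasting is known to raise ALAS1 in liver through the coactivator PGC-1alpha. HMOX1, the inducible heme oxygenase, opens the heme ring to biliverdin, carbon monoxide and iron, and in liver it is most active in Kupffer cells, the resident macrophages that take up old red cells. BLVRB reduces flavins and certain biliverdin isomers.

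With the levels as deposited, none of the 8 enzymes changed between IUGR and normal pigs beyond the spread between animals. In limma's moderated test over all 14727 loci, 0 of 8 passed an adjusted p of 0.05, beside 0.0204% of all tested loci. At an unadjusted p of 0.05 the count was also 0 of 8, beside 6.79% of all tested loci. The IUGR and normal values overlapped for every enzyme (0 of 8 without overlap, beside 9.60% of all tested loci). The differences on the log2(FPKM + 1) scale, IUGR minus normal, were positive for 5 of 8 enzymes, with a median of 0.20 beside a median of 0.15 over all tested loci. After the libraries were scaled to a common median, 4 of 8 were positive. The smallest unadjusted p was 0.186, for ALAS1. In bulk liver, fewer cells of a type and less RNA per cell cannot be told apart.

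ALAS1 (ENSSSCG00000011437, chromosome 13, 37657827 to 37668046, assembly Sscrofa10.2) stood at 31.9, 30.2 and 59.4 FPKM in the 3 normal pigs and at 54.5, 53.9 and 48.8 FPKM in the 3 IUGR pigs. The IUGR animals lay close together, whereas normal pig 3 was above every IUGR animal and the other two normal pigs were below all of them. Mean levels were 40.5 ± 16.4 FPKM in the normal and 52.4 ± 3.14 FPKM in the IUGR animals (SD, n = 3 each). The log2 difference was 0.43 (SE 0.31, 95% interval -0.24 to 1.10, limma adjusted p = 0.874). Leaving out single libraries moved this value between 0.26 and 0.74, and it was highest without normal pig 3. It fell to 0.25 under median scaling, 0.21 under quantile scaling and 0.16 with libraries scaled to the same sum.

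UROS, which closes the linear tetrapyrrole into uroporphyrinogen III, was measured over an interval on chromosome 14 (146730642 to 146928694, ENSSSCG00000010742) that also holds BCCIP, FANK1 and DHX32. Its levels were 29.4, 18.5 and 15.4 FPKM in normal pigs and 18.1, 19.7 and 18.4 FPKM in IUGR pigs. All IUGR animals sat inside the range of the normal animals, whose spread came from the high value in normal pig 1. Mean levels were 21.1 ± 7.36 and 18.7 ± 0.853 FPKM (SD, n = 3 each), a log2 difference of -0.11 (SE 0.28, limma adjusted p = 0.937) that turned to 0.14 when normal pig 1 was left out.

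UROD, the decarboxylase that turns uroporphyrinogen into coproporphyrinogen, lies on chromosome 6 (153911566 to 153915019, ENSSSCG00000003922). Its levels were 15.1, 8.23 and 6.83 FPKM in normal pigs and 9.50, 15.7 and 11.8 FPKM in IUGR pigs. Both groups held animals above 15 FPKM and animals below 10 FPKM, so they overlapped over most of their range. Mean levels were 10.1 ± 4.43 and 12.4 ± 3.15 FPKM (SD, n = 3 each), with a log2 difference of 0.32 (SE 0.30, 95% interval -0.33 to 0.97, limma adjusted p = 0.887). That value was 0.63 without normal pig 1, 0.11 without normal pig 3 and 0.072 with libraries scaled to the same sum.

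CPOX, the mitochondrial coproporphyrinogen oxidase, lies on chromosome 13 (170521799 to 170536695, ENSSSCG00000011978) and had the highest mean level of the 8. It stood at 64.7, 49.2 and 34.8 FPKM in normal pigs and at 45.7, 65.9 and 60.8 FPKM in IUGR pigs. The lowest animal was normal and the highest was IUGR, with the others mixed between them. The log2 difference was 0.24 (SE 0.31, 95% interval -0.43 to 0.90, limma adjusted p = 0.897), and it was 0.45 without normal pig 1, 0.0092 without normal pig 3 and -0.032 with libraries scaled to the same sum.

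PPOX, which oxidizes protoporphyrinogen to protoporphyrin, was read from a row that joins it with the neighbouring USP21, so its value cannot be assigned to PPOX alone. The joined row spans chromosome 4 from 97134703 to 97152065 and overlaps B4GALT3 as well. Levels were 12.8, 9.25 and 7.34 FPKM in normal pigs and 10.4, 13.7 and 11.9 FPKM in IUGR pigs. One normal animal lay among the IUGR animals and the other two lay below them. The log2 difference was 0.29 (SE 0.26, 95% interval -0.26 to 0.85, limma adjusted p = 0.885), with 0.49 without normal pig 1, 0.12 without normal pig 3 and 0.045 under sum scaling.

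FECH, the ferrochelatase that inserts iron into protoporphyrin as the last step of the pathway, lies on chromosome 1 (117466592 to 117488181, ENSSSCG00000004541). It stood at 23.2, 15.3 and 14.6 FPKM in normal pigs and at 17.1, 23.5 and 18.2 FPKM in IUGR pigs. The highest normal and the highest IUGR animal were nearly level, and each group reached down to values well below them. Its log2 difference was 0.16 (SE 0.27, 95% interval -0.42 to 0.74, limma adjusted p = 0.908), and it became -0.020 after median scaling, -0.10 after sum scaling and -0.027 after quantile scaling. Leaving out single libraries moved it from 0.026 to 0.36.

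Among the breakdown enzymes, HMOX1 was read from an unplaced scaffold (GL894747.1, 3546 to 9948, ENSSSCG00000026759). Its levels were 14.3, 5.20 and 10.7 FPKM in normal pigs and 11.6, 9.59 and 7.04 FPKM in IUGR pigs. Both the lowest and the highest animal were normal, and the highest value was 2.75 times the lowest, the widest span of the 8 enzymes. Mean levels were 10.1 ± 4.59 and 9.40 ± 2.27 FPKM (SD, n = 3 each), a log2 difference of -0.018 (SE 0.32, 95% interval -0.72 to 0.68, limma adjusted p = 0.990). Leaving out single libraries moved that difference from -0.39 to 0.26, so it had no settled sign.

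BLVRB lies on chromosome 6 (44463596 to 44477028, ENSSSCG00000021067) and stood at 23.6, 16.3 and 15.4 FPKM in normal pigs and at 13.5, 18.0 and 15.9 FPKM in IUGR pigs. The highest animal was normal and the lowest was IUGR, with overlap between them. Mean levels were 18.4 ± 4.47 and 15.8 ± 2.22 FPKM (SD, n = 3 each), a log2 difference of -0.20 (SE 0.26, 95% interval -0.76 to 0.36, limma adjusted p = 0.897). Leaving out single libraries moved it from -0.31 to -0.015, and it lay nearest to 0 without normal pig 1.

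**Figure D1:**
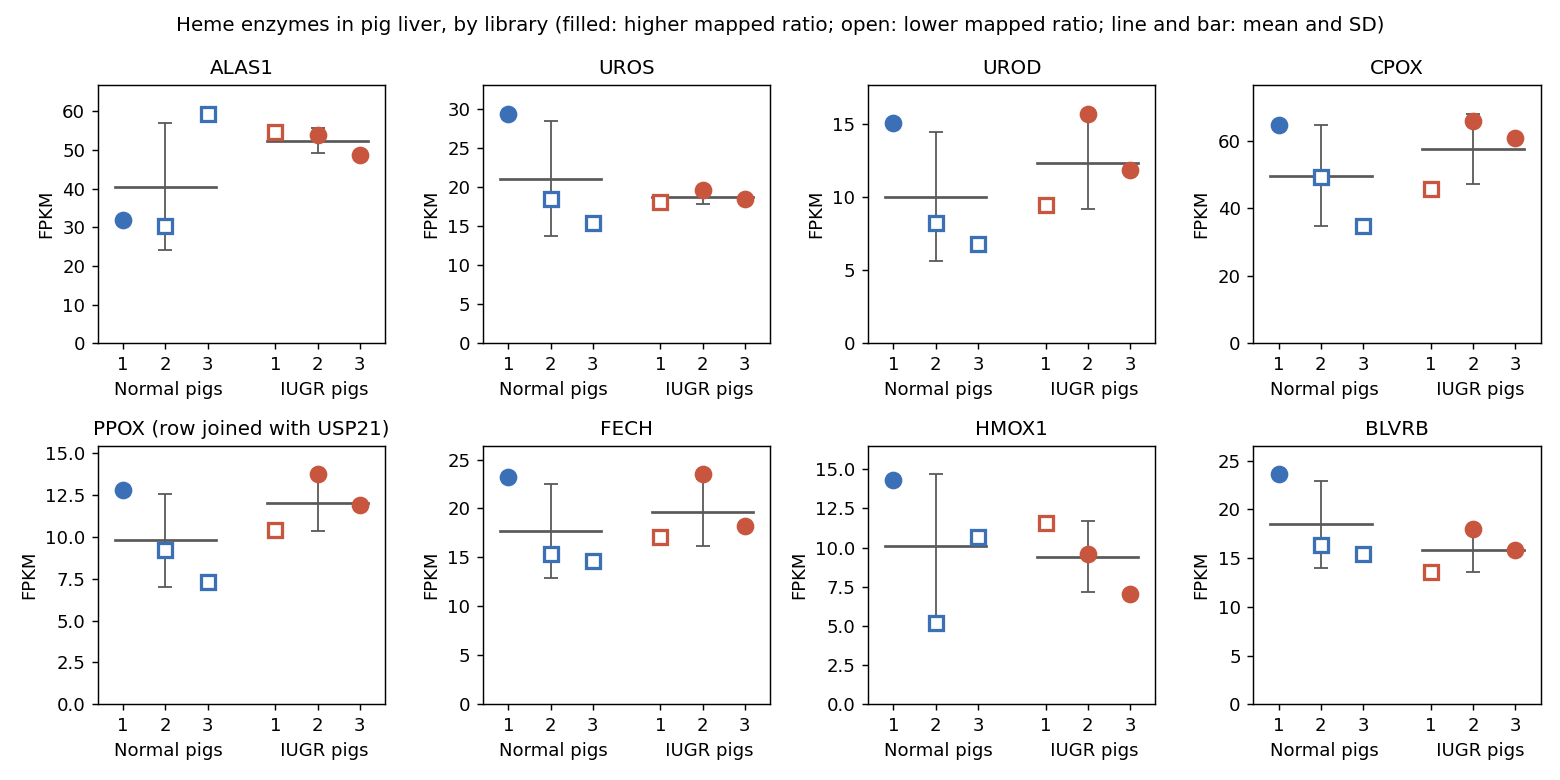
Level of each of the 8 heme enzymes in FPKM (vertical axis, from 0) in the 6 libraries (horizontal axis, pigs 1 to 3 of each group), with the group mean as a line and the SD as a bar; filled circles are libraries with a higher mapped ratio and open squares those with a lower one. Normal and IUGR values overlapped for all 8 enzymes, and ALAS1 spread from 30.2 to 59.4 FPKM within the normal group.

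Ordered by mean log2 level, the enzymes ran CPOX, ALAS1, UROS, FECH, BLVRB, UROD, PPOX and HMOX1. CPOX and ALAS1 stood above 92.3% and 91.0% of all tested loci, and HMOX1, the lowest, above 66.4%. CPOX ranked first in 4 libraries, and ALAS1 ranked first in normal pig 3 and IUGR pig 1. Of the 7 neighbouring pairs in this order, ALAS1 over UROS (mean log2 difference 1.16) and BLVRB over UROD (0.61) kept their order in 6 of 6 libraries. Both gave an exact two-sided sign-flip p of 0.03125, the smallest that 6 libraries allow, and 0.109 after Benjamini-Hochberg adjustment over the 7 pairs. The other 5 pairs, CPOX and ALAS1 among them, gave exact p-values from 0.25 to 0.969. UROD and PPOX changed places when normal pig 1 or IUGR pig 2 was left out.

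The libraries themselves differed in a way that touches these values. Known loci as a whole stood higher in normal pig 1, IUGR pig 2 and IUGR pig 3 (median of tested loci 5.10 to 5.94 FPKM) than in normal pig 2, normal pig 3 and IUGR pig 1 (3.83 to 4.82 FPKM). Normal pig 1 and IUGR pigs 2 and 3 are also the libraries with the higher ratio of mapped reads in the study's sequencing summary. The 2 sets cross the groups, and comparing them was decided after the data had been seen. Among hepatocyte markers ALB was listed at 0 in all 6 libraries with a failed estimate. TF also had 3 failed estimates. It was listed at 0 in normal pig 1 and IUGR pigs 2 and 3, the libraries with the higher mapped ratio. TTR ranged from 6129 to 11875 FPKM and AHSG from 2975 to 8648 FPKM. The liver label therefore rests on markers other than ALB and TF.

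UROD, CPOX, PPOX and FECH stood higher in the set of libraries with the higher mapped ratio. UROD stood at 11.8 to 15.7 FPKM in the higher set and at 6.83 to 9.50 FPKM in the lower set, with a log2 difference of 0.73 (limma adjusted p = 0.0442). CPOX (log2 difference 0.56, limma adjusted p = 0.0614), PPOX (0.48, 0.0766) and FECH (0.44, 0.0837) lay higher in the same way. In these 4 of 8 enzymes the sets did not overlap, beside 44.3% of all tested loci, and 4 of 8 passed an unadjusted p of 0.05, beside 38.7%. By the adjusted p, 1 of 8 was called, beside 7.50%. These shares lie close to those of all loci, and the enzymes' median log2 difference was 0.39 beside 0.32. The count by the adjusted p was 0 after median, sum or quantile scaling, with the group as a factor, and with IUGR 2 and IUGR 3 averaged. With single libraries left out it was 3 without IUGR pig 1, beside 3697 of all tested loci higher, and 0 in every other case. ALAS1 (-0.073), HMOX1 (0.17), BLVRB (0.31) and UROS (0.34) had overlapping sets. After the libraries were scaled to the same median, 1 of 8 enzymes, UROD at a log2 difference of 0.38 (limma adjusted p = 0.201), was past an unadjusted p of 0.05, beside 8.43% of all tested loci. Without IUGR pig 2 the count at an unadjusted p of 0.05, before scaling, was 2 of 8. The part of the mapped ratio in the levels of UROD, CPOX, PPOX and FECH was not tested.

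**Figure D2:**
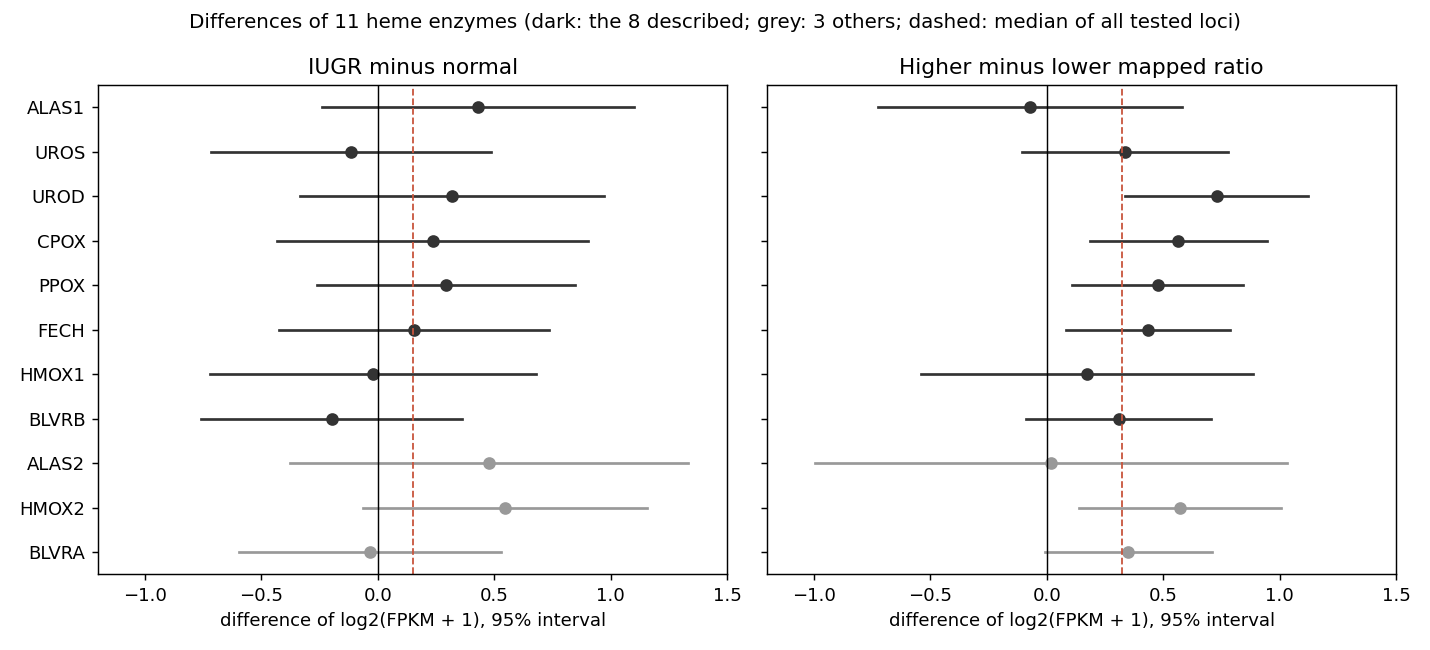
Difference of log2(FPKM + 1) with its 95% interval (horizontal axis) for the 8 heme enzymes in dark and 3 further heme enzymes in grey (vertical axis), IUGR minus normal on the left and libraries of higher minus lower mapped ratio on the right; the dashed line is the median of all tested loci, 0.15 and 0.32. All intervals on the left include 0, and on the right, among the 8 enzymes, those of UROD, CPOX, PPOX and FECH lie above it.

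Inside each set of libraries there was 1 animal of one group against 2 of the other, so within-set values carry no test. ALAS1 had a higher IUGR than normal mean by 0.67 on the log2 scale in the higher set and by 0.36 in the lower set. In the lower set IUGR pig 1, at 54.5 FPKM, lay between normal pigs 2 and 3, at 30.2 and 59.4 FPKM. BLVRB had IUGR minus normal values of -0.46 and -0.21, negative in both sets. UROS (-0.60 and 0.093), UROD (-0.13 and 0.30), CPOX (-0.031 and 0.14), PPOX (-0.0044 and 0.31), FECH (-0.16 and 0.18) and HMOX1 (-0.73 and 0.56) had opposite signs in the higher and the lower set.

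Setting each library to the same median of tested loci moved the median difference of all tested loci between the groups from 0.15 to 0.016 and separated the groups for BLVRB and UROS. Scaled BLVRB levels were 19.7, 19.0 and 20.0 FPKM in normal pigs and 13.9, 15.3 and 15.4 FPKM in IUGR pigs. Every IUGR animal lay below every normal animal, and the normal animals lay within 1 FPKM of each other. The log2 difference was -0.37 (SE 0.096, 95% interval -0.60 to -0.15, limma adjusted p = 0.356). It stayed between -0.40 and -0.33 when each library was left out in turn, and it was -0.46 with libraries scaled to the same sum and -0.38 after quantile scaling. Scaled UROS levels were 24.6, 21.5 and 20.0 FPKM in normal pigs and 18.6, 16.8 and 17.9 FPKM in IUGR pigs, again with all IUGR animals lowest. Its log2 difference was -0.29 (95% interval -0.56 to -0.024, limma adjusted p = 0.496), and it was -0.21 without normal pig 1. These 2 of 8 enzymes were lower with no overlap, beside 6.29% of all tested loci, and 0 of 8 were higher with no overlap. Neither passed the adjusted test under any of the 3 scalings, so both are values and not calls.

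**Figure D3:**
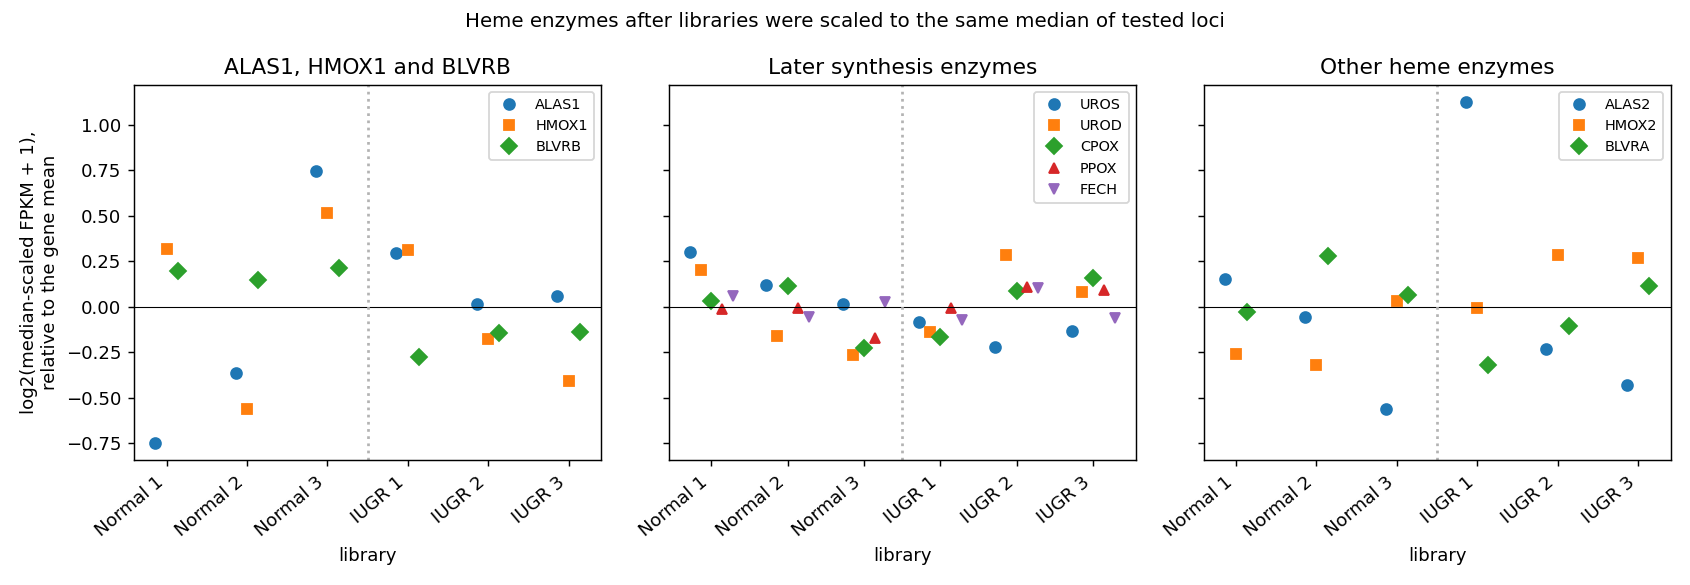
Level of each heme enzyme relative to its own mean (vertical axis, log2 of median-scaled FPKM + 1) in the 6 libraries (horizontal axis), with ALAS1, HMOX1 and BLVRB on the left, the later synthesis enzymes in the middle and 3 further heme enzymes on the right; each symbol is 1 library. BLVRB and UROS were higher in all 3 normal than in all 3 IUGR libraries, and ALAS1, HMOX1 and ALAS2 spread widest.

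With scaled levels, PPOX was the enzyme closest to both CPOX and FECH: the root mean square difference of centred log2 values over the 6 libraries was 0.0902 for CPOX and PPOX and 0.111 for PPOX and FECH. UROS and BLVRB were also close, at 0.126, and ALAS1 and UROD were farthest apart among the 8, at 0.609. The PPOX row is the one joined with USP21. Centred values ran only from -0.169 to 0.107 for PPOX and from -0.0744 to 0.105 for FECH. A small distance between enzymes that vary so little does not show a shared course. All these distances share the same 6 libraries and scaling and are a description.

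The make-up of the heme enzyme transcripts within a library does not depend on a scaling that multiplies all loci of a library by 1 factor, as median and sum scaling do. ALAS1 took 14.8, 19.8 and 36.1% of the summed FPKM of the 8 enzymes in normal pigs and 30.2, 24.5 and 25.3% in IUGR pigs. Its lowest and highest shares were both in normal animals. CPOX took from 21.1 to 32.3%, with its lowest share in normal pig 3, where ALAS1 was highest. BLVRB took 10.97, 10.7 and 9.38% in normal pigs and 7.50, 8.17 and 8.23% in IUGR pigs, so that all 3 IUGR animals had the smaller share. UROS took 13.7, 12.1 and 9.37% in normal pigs and 10.0, 8.95 and 9.56% in IUGR pigs, so its shares overlapped. HMOX1 took from 3.41 to 6.66% over the 6 libraries.

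**Figure D4:**
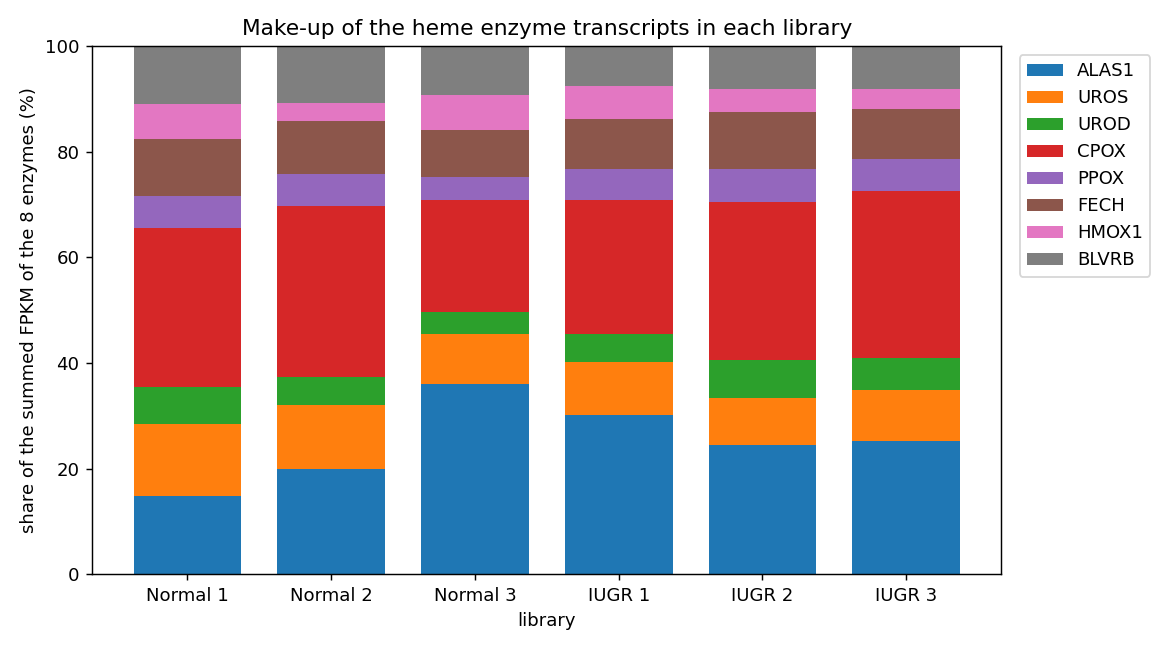
Share of the summed FPKM of the 8 heme enzymes taken by each enzyme (vertical axis, percent, stacked to 100) in each of the 6 libraries (horizontal axis). The ALAS1 share ran from 14.8% in normal pig 1 to 36.1% in normal pig 3, and the BLVRB share was at most 8.23% in IUGR and at least 9.38% in normal pigs.

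For the balance between steps, 3 ratios were formed within each library and compared by exact two-sided permutation tests, in which 3 against 3 animals cannot go below p = 0.1. The log2 ratio of ALAS1 to the summed 5 later synthesis enzymes was -2.19, -1.73 and -0.41 in the normal and -0.89, -1.36 and -1.31 in IUGR pigs. The IUGR values lay inside the normal range (difference 0.26, exact p = 0.8), and the sign turned without normal pig 1 (-0.11). The log2 ratio of HMOX1 to ALAS1 was -1.15, -2.54 and -2.47 in the normal and -2.24, -2.49 and -2.79 in IUGR pigs. Apart from normal pig 1 these values were alike in both groups (difference -0.45, exact p = 0.5; -0.0014 without normal pig 1). The log2 ratio of BLVRB to HMOX1 was 0.72, 1.65 and 0.53 in the normal and 0.23, 0.91 and 1.17 in IUGR pigs, which overlapped (difference -0.20, exact p = 0.7), and its sign turned without normal pig 2 or IUGR pig 1. Adjusted over the 3 ratios, each exact p was 0.8.

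The genes whose scaled levels were most like those of ALAS1 over the 6 libraries, among 10364 candidates with a mean of at least 1 FPKM, were SULT1B1, PRLR, IVNS1ABP, PLCL1 and SLC30A2. The closest, the cytosolic sulfotransferase SULT1B1, had a root mean square difference of 0.116, where ALAS1 itself had a root mean square deviation of 0.473. SULT1B1 stood at 5.56, 4.16 and 10.0 FPKM in normal pigs and at 8.03, 8.57 and 7.31 FPKM in IUGR pigs, again with normal pig 3 highest. SLC30A2, a zinc transporter, was listed at 0 in normal pig 1, where ALAS1 also lay low. For HMOX1 they were MFHAS1, NUDCD1, ECM1, SCTR and NADH6, from 0.0902 to 0.130 where HMOX1 had 0.403. MFHAS1 stood at 9.36, 3.47 and 6.88 FPKM in the normal and at 7.94, 5.65 and 5.22 FPKM in IUGR pigs, lowest in normal pig 2 as was HMOX1. All these genes were picked for likeness over the same 6 libraries, so sharing the highest or lowest animal follows from the choice. Whether they are closer than 10364 candidates would give without any link was not tested.

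The further enzymes ALAS2, HMOX2 and BLVRA had rows, and with the levels as deposited 0 of 3 passed the test at either threshold. HMOX2, the constitutive heme oxygenase, stood at 39.4, 27.1 and 31.3 FPKM in the normal and at 38.3, 56.8 and 49.2 FPKM in IUGR pigs, with IUGR pig 1 just under the highest normal animal. Its log2 difference was 0.55 (SE 0.28, 95% interval -0.061 to 1.15, limma adjusted p = 0.779). It was 0.36 after median scaling (95% interval 0.027 to 0.70, limma adjusted p = 0.497) and 0.28 after sum scaling. HMOX2 stood above the inducible HMOX1 in every library. BLVRA, which reduces biliverdin to bilirubin, stood at 18.7, 16.8 and 12.9 FPKM in the normal and at 12.2, 17.3 and 17.9 FPKM in IUGR pigs. These values overlapped throughout (log2 difference -0.033, limma adjusted p = 0.979).

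ALAS2, the erythroid form of the first enzyme, stood at 19.3, 11.9 and 7.27 FPKM in the normal and at 31.7, 14.2 and 10.7 FPKM in IUGR pigs, highest in IUGR pig 1. The hemoglobin gene HBB had the same order of animals, at 1480, 978 and 595 FPKM in the normal and 1982, 1225 and 954 FPKM in IUGR pigs. So did the hemoglobin-stabilizing AHSP, at 12.5, 8.45 and 3.07 FPKM in the normal and 19.1, 10.3 and 7.09 FPKM in IUGR pigs. HBA, at 768, 566 and 370 FPKM in the normal and 1602, 740 and 582 FPKM in IUGR pigs, departed from that order in that IUGR pig 3 lay above normal pig 2. EPB42, a red cell membrane protein, was lower in IUGR than in normal means (log2 difference -0.18, at 0.416 to 0.799 FPKM). Erythroid markers as a list (8 of 9 with a row, 5 tested) had summed levels of 976 to 2280 FPKM in the normal and 1554 to 3635 FPKM in IUGR pigs, with 0 of 5 past an unadjusted p of 0.05. KLF1, GATA1 and SLC4A1 were at most 0.251 FPKM in every library. The part of red cell RNA in the levels of the heme enzymes was not tested.

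Markers of Kupffer cells and macrophages, 11 of 11 with a row and 10 tested, summed to 779 to 1580 FPKM in the normal and 964 to 1274 FPKM in IUGR pigs, and 0 of 10 passed an unadjusted p of 0.05. The log2 differences were positive for 7 of 10, with a median of 0.15, beside 0.15 over all tested loci. They lay above the median of all tested loci for 5 of 10. The gene with the lowest p was among those with a negative difference. The scavenger receptor MARCO stood at 17.8, 10.5 and 14.8 FPKM in the normal and at 11.1, 9.48 and 9.24 FPKM in IUGR pigs (log2 difference -0.47, limma adjusted p = 0.814), and the hemoglobin receptor CD163 was at most 0.0866 FPKM. Their part in the HMOX1 level was not tested. Hepatocyte markers (8 of 8 with a row, 7 tested) had 0 of 7 past that threshold, cholangiocyte markers 0 of 3 and lymphocyte markers 0 of 5. The 7 hepatocyte markers include TF with its failed estimates. Higher in IUGR at an unadjusted p of 0.05 were 2 of 5 tested endothelial markers, 3 of 6 stellate cell markers and 3 of 3 neutrophil markers, with 0 lower, beside 6.79% of all tested loci past it in either direction, while none of these lists had a gene past the adjusted threshold. Their median log2 differences were 0.47, 0.64 and 1.07 beside 0.15 over all tested loci. Of 5 neutrophil markers listed, 4 had a row. Those tested were S100A8, S100A9 and S100A12, and MPO lay below the minimum mean level. The part of these cell types in the values of the heme enzymes was not tested.

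The genes that supply, move and use heme gave 0 calls by the adjusted test in each of 8 lists. The median log2 difference over all tested loci, 0.15, is the value to set beside each list median here. Heme and porphyrin carriers had 0 of 13 genes past an unadjusted p of 0.05 and a median log2 difference of 0.21. The difference was positive for 11 of 13 carriers and above the median of all tested loci for 10. Those with the lowest p were SLC25A37, the mitochondrial iron importer (0.38), ABCB10, its mitochondrial partner (0.37), and the heme-binding HEBP1 (0.45). These fell to 0.13, 0.11 and 0.18 under sum scaling, and the heme exporter FLVCR1 had -0.24, or 0.036 without normal pig 1. Iron supply genes had 0 of 9 and a median of 0.28, with the transferrin receptor TFRC at 0.52 and the cysteine desulfurase NFS1 at 0.38, or 0.25 and 0.12 under sum scaling. Genes for succinyl-CoA and glycine, the substrates of ALAS1, had 0 of 8 and a median of 0.12. They were positive for 6 of 8 but above the median of all tested loci for only 3 of 8. The glycine decarboxylase GLDC was at 0.37, which was 0.87 without normal pig 1, 0.013 without normal pig 3 and 0.012 with the mapped ratio as a factor. The succinyl-CoA ligase subunit SUCLA2 was at -0.096, or 0.12 without normal pig 1 and 0.014 without IUGR pig 1. The list of heme proteins had 0 of 11 and a median of 0.21. It also holds the reductases POR, CYB5R3 and NDOR1, which carry no heme, and HMOX2, described above. Catalase (CAT) was at 0.63 and the succinate dehydrogenase subunit SDHC at 0.44, or 0.36 and 0.17 under sum scaling. Scavenging genes had 0 of 2 and a median of 0.098, with hemopexin (HPX) at 0.19, which turned to -0.081 under sum scaling and -0.044 under quantile scaling.

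Bilirubin handling genes had 0 of 3 past that threshold and a median log2 difference of 0.19, beside 0.15 over all tested loci. Of 7 listed, only these 3 had a row, and UGT1A6, SLCO1B1, SLCO1B3 and GSTA1 had none under these symbols. UGT1A1, which conjugates bilirubin, stood at 169, 114 and 77.9 FPKM in the normal and at 145, 134 and 114 FPKM in IUGR pigs, though it shares exons with other members of its family and its value is uncertain. The groups overlapped over most of their range (log2 difference 0.19, or -0.082 under sum scaling and -0.067 under quantile scaling).

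Regulators of heme genes had a median log2 difference of 0.18, beside 0.15 over all tested loci. Of 15 regulators listed, 11 had a row and were tested. MAFG, PPARGC1A (the gene for PGC-1alpha), NR1I2 and NR1I3 had no row under these symbols. Of 11 tested, 1 was higher at an unadjusted p of 0.05 and 0 lower, beside 6.79% of all tested loci in either direction. The exception was MAFK, a small MAF protein that pairs with NRF2 or with the heme-sensing repressor BACH1 at the HMOX1 gene. MAFK stood at 7.25, 5.10 and 5.35 FPKM in the normal and at 9.48, 12.2 and 8.73 FPKM in IUGR pigs. All IUGR animals lay above all normal animals (log2 difference 0.69, SE 0.24), but its limma adjusted p was 0.534. NFE2L2, the gene for NRF2, had a log2 difference of 0.42, or 0.15 under sum scaling. Targets of NRF2 had 1 of 10 higher and 0 lower, also beside 6.79%, and a median log2 difference of 0.20 beside 0.15. The difference was positive for 9 of 10 targets and above the median of all tested loci for 6. The target past the threshold was the malic enzyme ME1 (0.55, limma adjusted p = 0.698). GCLC and NQO1 had values of 0.63 and 0.66 that did not pass and were 0.36 and 0.45 under sum scaling. GCLM went the other way, at -0.33, or -0.59 under sum scaling. HMOX1, itself a target of NRF2, had -0.018.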

How the data were processed

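Liver RNA of 6 pigs was sequenced as poly(A) paired-end libraries. Reads were filtered, aligned with TopHat2 2.0.14 on a Bowtie2 2.0.6 index, assembled with Cufflinks 2.2.1 guided by the annotation, and quantified by the authors with Cuffdiff 2.1.1 as FPKM per locus and library, the unit deposited. The submitters' processing notes give the assembly Sscrofa10.2, used for all coordinates here, whereas the study's text names a later one. Their own comparisons used edgeR 3.2 and were not used here. The table holds no read counts, so the depth behind a value is unknown, and joined or overlapping loci share fragments that cannot be told apart.

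FPKM as deposited by the authors were taken as log2(FPKM + 1), which understates changes of low genes. Known loci with a mean of at least 0.3 FPKM were fitted with limma 3.58.1 (R 4.3.3, variance trend), with Benjamini-Hochberg adjustment over all 14727 loci and a threshold of 0.05. The filter was passed by all 8 enzymes with a row. Ratios and orders used exact tests in Python 3.11.15. The fit was tested on simulated data. Genes most like ALAS1 and HMOX1 were the 5 with the smallest root mean square difference of centred, median-scaled log2 values. Other named genes are the other heme enzymes and, of each pathway list, up to 4 genes with the lowest unadjusted p. FLVCR1, SUCLA2 and all marker genes were chosen after their values were seen. The enzymes and lists were chosen with earlier results of these data known. The labels do not say which animals were littermates, and IUGR 2 and IUGR 3 are the most alike libraries, so their spread may understate that between IUGR pigs. Alternatives were other pseudocounts, filters, scalings, variance models and sets of libraries. Sequences of the genes are not shown, and 1 other gene is not reported here.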

Additional observations from a re-analysis of the deposited data

How the results depend on the processing

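The count of heme enzymes called between IUGR and normal pigs stayed at 0 of 8 under all 19 alternatives (other pseudocounts, filters, scalings and variance models, the mapped ratio as a factor, a replicate block, IUGR 2 and IUGR 3 averaged, and each library left out), with the lowest adjusted limma p at 0.136, without normal replicate 1. Summing the rows of a symbol was not run because every symbol had 1 row. With the replicate block, in which same-numbered libraries were paired, 0 of 8 were called and the lowest adjusted p was 0.998. The labels do not say whether the numbers mark litters, so they were not treated as pairs. Deviations of same-numbered libraries correlated at -0.22, -0.072 and -0.17. These were taken before scaling, with 3 libraries a group, and cannot decide whether the numbers mark litters. Of 626 single-gene values recomputed over 33 genes, 21 reversed in sign, and 0 passed the adjusted test.

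Under median scaling FECH was at -0.020. Under sum scaling CPOX was at -0.032, FECH at -0.10, UGT1A1 at -0.082 and HPX at -0.081. Under quantile scaling FECH was at -0.027, UGT1A1 at -0.067 and HPX at -0.044. With the mapped ratio as a factor HPX was at -0.053, and with IUGR 2 and IUGR 3 averaged HMOX1 was at 0.056. Leaving out single libraries gave -0.30 to 0.14 for UROS, -0.39 to 0.26 for HMOX1, -0.18 to 0.13 for BLVRA, -0.085 to 0.47 for UGT1A1, -0.39 to 0.036 for FLVCR1 and -0.30 to 0.12 for SUCLA2. It gave -0.11 to 0.77 for the log2 ratio of ALAS1 to the later enzymes and -0.42 to 0.15 for that of BLVRB to HMOX1. The cause was not tested.

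Between IUGR and normal pigs, the count at an unadjusted limma p of 0.05 was 0 before scaling and 2 after median, sum or quantile scaling. Between the library sets, the count at an unadjusted p of 0.05 was 1 after median scaling, 0 after sum scaling, 1 after quantile scaling and 2 to 4 when single libraries were left out. With 3 animals a group, none of the differences between IUGR and normal pigs was called, which does not show that levels were alike.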
